A study of Mus musculus with 6 samples.

Results

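The miR-29 family was measured in mouse retinal cells as 3 mature microRNAs (miR-29a, miR-29b and miR-29c). Its members were every probe whose name on the array, split at the slashes that join species, held mmu-miR-29a, mmu-miR-29b or mmu-miR-29c. This gave 3 of 597 mouse probes, each printed as 4 spots, so 12 of the 8720 spots of an array. Each probe carries the human, mouse and rat name of its microRNA together.

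The arrays were miRCURY LNA arrays with 2 colours, on which locked nucleic acid probes capture labelled microRNA. The groups were 3 samples of retinal cells from mice developing experimental autoimmune uveitis (EAU), taken on day 14, and 3 samples from naive mice. All mice were of strain B10.RⅢ and 8 weeks old, and EAU is a model in which the immune system attacks the retina. From each sample, 800 ng of total RNA was labelled with Hy3 and hybridised beside a Hy5-labelled reference blended in equal amounts from all samples. The agent that induced EAU and the number of mice behind each sample are stated in none of the sources used, and there was no dye swap. The p-values therefore measure the spread between these 6 samples. All EAU arrays were scanned on 1 day and all naive arrays on another, so an effect of group cannot be told apart from one of the scan day.

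A mature microRNA guides the silencing complex to messenger RNAs that pair with its seed, the bases near its 5′ end, and lowers the output of those messages. The miR-29 family is known for repressing collagens, elastin and other genes of the extracellular matrix, and the de novo DNA methyltransferases Dnmt3a and Dnmt3b. In mouse T helper cells it restrains T-bet, Eomes and interferon gamma, which drive the T helper 1 response, and in mouse neurons it restrains cell death genes of the BH3-only class.

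The mature sequences are shown because the probes have to tell apart RNAs that share nearly all of their bases. They are from RefSeq on GRCm38.p6, 5′ to 3′, with the seed (bases 2 to 8) in capitals, and all 3 members matched an entry.
miR-29a: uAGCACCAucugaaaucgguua
miR-29b: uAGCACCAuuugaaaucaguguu
miR-29c: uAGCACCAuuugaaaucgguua
The 3 members share 1 seed, and of 1679 mature mouse names in the RefSeq table only these 3 hold it. Their first 9 bases are identical. With positions counted from 1 at the 5′ end and the first-named member's base first, miR-29a and miR-29c differ by C10U alone and match at 21 of 22 positions. Between miR-29b and miR-29c the substitutions are A18G, G21U and U22A, and 19 of 22 positions match. Between miR-29a and miR-29b they are C10U, G18A, U21G and A22U, and 18 of 22 match. Whether the probes cross-hybridise was not tested, so the 3 signals may share RNA.

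The members come from 2 pairs of hairpins. Mature miR-29a lies at chr6:31062673-31062694 on the minus strand in Mir29a, and 1 copy of miR-29b at chr6:31063025-31063047 on the same strand in Mir29b-1. These hairpins are 275 bases apart. The other copy of miR-29b lies at chr1:195037091-195037113 on the plus strand in Mir29b-2, and miR-29c at chr1:195037600-195037621 in Mir29c, with 426 bases between the hairpins. Both miR-29b genes give the same mature RNA, so the miR-29b probe cannot separate them.

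On the scanned images all 3 members were above the blank level on all 6 arrays in both channels. A probe was counted as above when at least 50% of its spots exceeded the blank level. That level was set per array from 144 blank and negative-control spots, as their median with 3 times their median absolute deviation added. Some spots without a probe name are bright and were kept among the blanks: 31 to 39 of the 144 exceeded the level in the sample channel, and 8 to 15 exceeded the dimmest miR-29 probe of their array. In the reference channel 32 to 39 exceeded the level, and 14 to 20 exceeded the dimmest miR-29 probe. The reference signal came closest to that level, at 1.12 times the blank level for miR-29b on EAU replicate 3. For miR-29a the mean sample-channel signal of the 4 spots, before any scaling between arrays, was 472, 1205 and 282 intensity units in EAU replicates 1 to 3, against 763, 734 and 614 in the naive replicates. EAU replicate 2 was above all naive arrays and the other 2 EAU arrays were below them. For miR-29b the signal was 287, 507 and 172 in EAU replicates 1 to 3, against 456, 416 and 321 in naive replicates. For miR-29c it was 317, 499 and 192 in EAU, against 587, 557 and 382 in naive. The unscaled groups thus overlapped for every member, with EAU replicate 2 the brightest and EAU replicate 3 the dimmest EAU array each time.

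**Figure D1:**
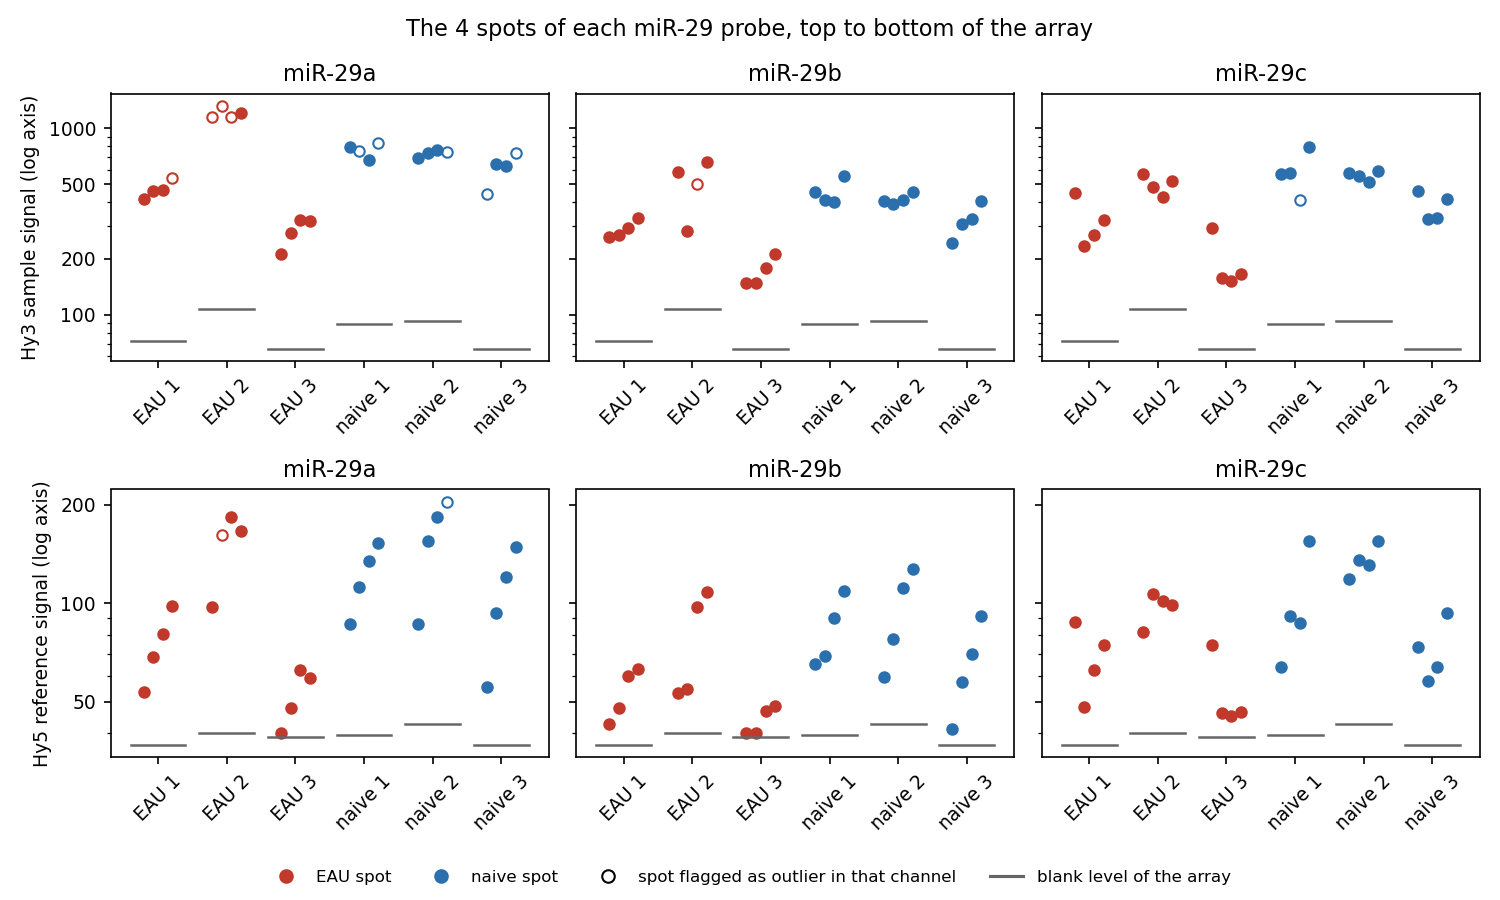
Signal of each of the 4 spots of the miR-29a, miR-29b and miR-29c probes (columns) in the Hy3 sample channel (top row) and the Hy5 reference channel (bottom row), in intensity units on log axes, for EAU arrays (left, red) and naive arrays (right, blue), spots ordered from the top to the bottom of the array. Open circles are spots flagged as outliers in that channel and grey lines are the array's blank level; EAU replicate 2 is brighter than the other EAU arrays, and the reference spots brighten toward the bottom on most arrays.

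Spots that the scanner software flagged as outliers were left out of the fits, and this fell mostly on miR-29a. It lost 4 of 12 spots on EAU arrays and 5 of 12 on naive arrays, so that miR-29a on EAU replicate 2 rests on 1 spot in the ratio and in the sample channel. miR-29b lost 1 spot on EAU replicate 2, and miR-29c lost 1 on naive replicate 1.

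In the sample channel, scaled between arrays by quantile normalization, all 3 members fell in EAU, and no member's groups overlapped. miR-29c had 8.28, 8.07 and 8.17 on the log2 scale in EAU replicates 1 to 3, against 9.34, 9.18 and 8.91 in naive replicates. The highest EAU value lay well below the lowest naive value. The difference was -0.97 (SE 0.12, 95% interval -1.27 to -0.66), which is 1.96-fold lower in EAU, with limma's Benjamini-Hochberg adjusted p = 0.0104 over 595 probes. miR-29b had 8.22, 8.08 and 8.20 in EAU, against 8.87, 8.89 and 8.69 in naive. Its spread within each group was small beside the gap between them. The difference was -0.65 (SE 0.08, 95% interval -0.84 to -0.46), 1.57-fold lower in EAU, with limma adjusted p = 0.00949. miR-29a had 8.78, 9.20 and 8.99 in EAU, against 9.53, 9.70 and 9.59 in naive. Here the EAU arrays were more scattered than the naive arrays, with EAU replicate 2 nearest to them. The difference was -0.62 (SE 0.12, 95% interval -0.90 to -0.33), 1.53-fold lower in EAU, with limma adjusted p = 0.0332. The 3 of 3 members that fell stand beside 5.88% of all 595 tested probes that fell at the same threshold (3.7% rose, 9.58% in either direction), and their separation of the groups beside 15.3% of probes whose EAU arrays were all lower. Only 15, 28 and 30 of the 595 probes had a more negative difference than miR-29c, miR-29b and miR-29a. The median difference over all probes was -0.01. The members were above the blanks on every array, which many of the 595 probes were not. Among the 288 probes above the blanks on at least 3 arrays, 41 fell and 33 rose at the same threshold, with a median difference of -0.05. Leaving out 1 array at a time, miR-29b passed all 6 times, and miR-29c missed the threshold once, without EAU replicate 2 (-0.92, limma adjusted p = 0.0513). miR-29a passed only without EAU replicate 2, the array on which it had 1 spot, and its limma adjusted p was 0.0350 there and up to 0.114 otherwise. The calls also varied with the scaling: with the 75th percentile of each array in place of quantiles only miR-29c passed (-0.87, limma adjusted p = 0.0336), and with no scaling none of the 3 did (-0.37 for miR-29a, -0.42 for miR-29b and -0.72 for miR-29c).

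**Figure D2:**
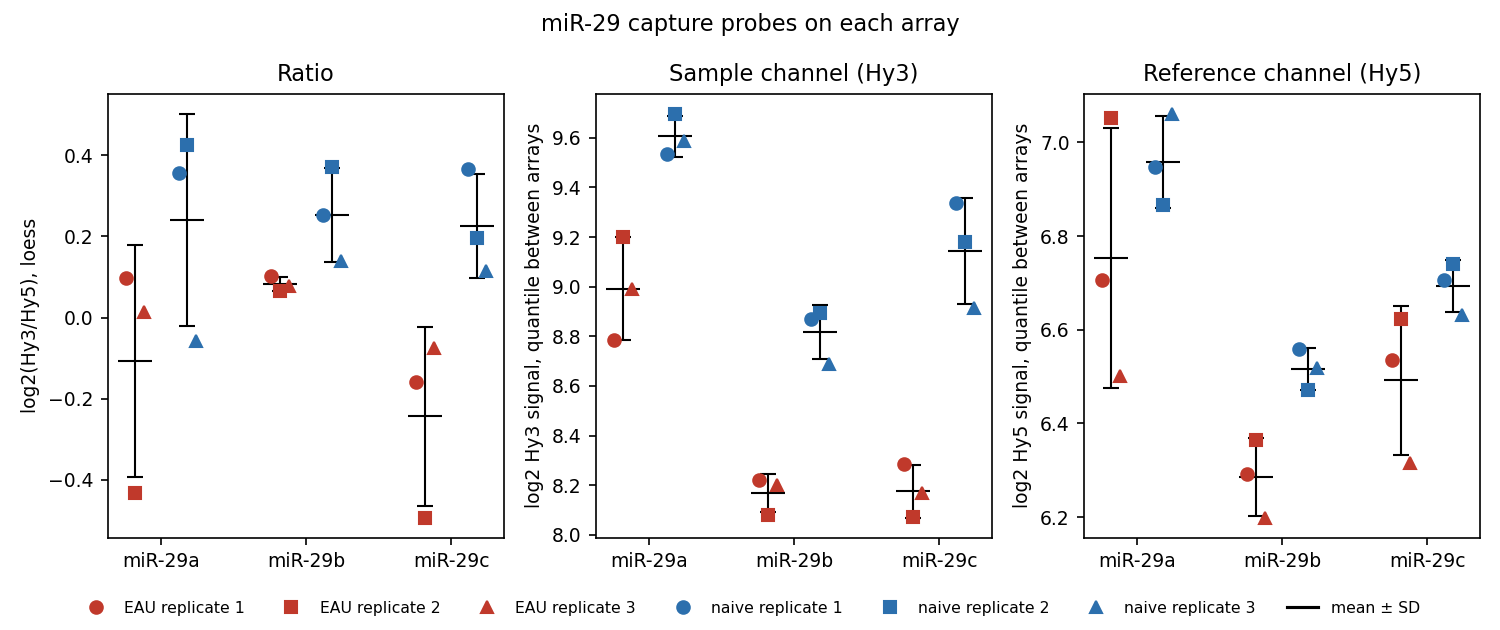
Values of miR-29a, miR-29b and miR-29c on each array, EAU (red) left of naive (blue), as the log2 ratio of sample to reference (left), the log2 sample-channel signal (middle) and the log2 reference-channel signal (right); black bars are the mean ± SD of 3 arrays. In the sample channel the EAU arrays lie below all naive arrays for every member, and in the ratio the groups overlap for miR-29a.

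The ratio of sample to reference, normalized by loess within each array, gave smaller differences, and no member passed the test. In this quantity 12.9% of 595 probes passed, 8.74% of them lower in EAU and 4.2% higher (shares of all probes). Among the 288 probes above the blanks on at least 3 arrays, 37 passed as lower and 25 as higher. miR-29c had a log2 ratio of -0.16, -0.49 and -0.08 in EAU replicates 1 to 3, against 0.37, 0.20 and 0.11 in naive replicates. All EAU arrays lay below 0 and all naive arrays above it. The difference was -0.47 (SE 0.13, 95% interval -0.79 to -0.15) with limma adjusted p = 0.0698. miR-29b had 0.10, 0.07 and 0.08 in EAU, against 0.25, 0.37 and 0.14 in naive. The EAU arrays were nearly equal and the groups did not overlap. The difference was -0.17 (SE 0.06, 95% interval -0.32 to -0.02) with limma adjusted p = 0.11. miR-29a had 0.10, -0.43 and 0.01 in EAU, against 0.36, 0.43 and -0.06 in naive. Naive replicate 3 lay below 2 of the EAU arrays, so the groups overlapped. The difference was -0.35 (SE 0.19, 95% interval -0.83 to 0.14) with limma adjusted p = 0.25. That miR-29b and miR-29c separated the groups stands beside 29.6% of probes whose EAU ratios were all lower. Of 19 alternative settings, miR-29c passed in 5 and miR-29a and miR-29b in 0, and without normalization the miR-29a difference was 0.00995. Without EAU replicate 2 the miR-29a difference was -0.18, and without naive replicate 2 that of miR-29b was -0.11.

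The reference channel held the same pool on every array, so it shows how far the denominator itself differed between EAU and naive arrays. It was lower on EAU arrays at all 3 members on the log2 scale, and none passed the test. miR-29a had 6.71, 7.05 and 6.50 on EAU arrays, against 6.95, 6.87 and 7.06 on naive arrays, a difference of -0.20 (SE 0.15, 95% interval -0.59 to 0.18, limma adjusted p = 0.864). EAU replicate 2 was at the upper end of the naive range. miR-29b had 6.29, 6.37 and 6.20 on EAU arrays, against 6.56, 6.47 and 6.52 on naive arrays, a difference of -0.23 (SE 0.05, 95% interval -0.36 to -0.10, limma adjusted p = 0.491). miR-29c had 6.54, 6.62 and 6.32 on EAU arrays, against 6.71, 6.74 and 6.63 on naive arrays, a difference of -0.20 (SE 0.09, 95% interval -0.42 to 0.02, limma adjusted p = 0.803). These sizes depend on the arrays and signals used: without EAU replicate 3 miR-29a had -0.08 and miR-29c -0.11, without EAU replicate 2 miR-29a had -0.35, and the scanner software's processed signals gave -0.52, -0.60 and -0.51 for miR-29a, miR-29b and miR-29c. The groups did not overlap for miR-29b and miR-29c, beside 9.55% of 597 probes lower on every EAU array. Across all 597 probes limma called 0 (0%) in this channel and 38 (6.37%) had an unadjusted p under 0.05, and the median difference was -0.0005. The 3 quantities were normalized separately, so the ratio's difference is not the sample difference minus the reference difference.

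**Figure D3:**
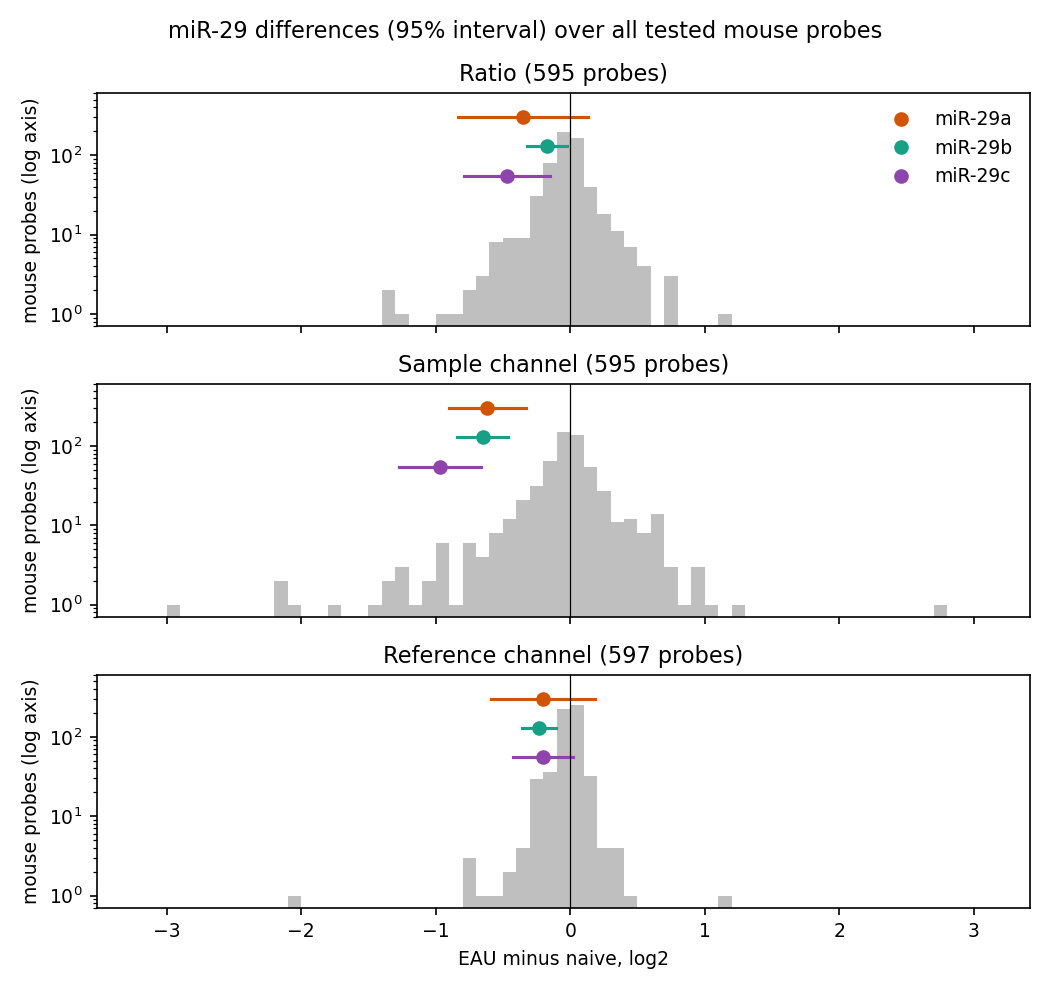
Difference between EAU and naive arrays (EAU minus naive, log2, x axis) for all tested mouse probes (grey histogram, count on a log axis) in the ratio (top), the sample channel (middle) and the reference channel (bottom). Coloured points and lines are the 3 members with 95% intervals, at arbitrary heights; all 3 intervals lie below 0 in the sample channel, the miR-29a interval crosses 0 in the ratio, and the miR-29a and miR-29c intervals cross 0 in the reference channel.

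Each array carries its layout 4 times, in copies that follow each other from top to bottom, so the same difference can be read 4 times. The EAU arrays were below all naive arrays in the sample channel in every copy for all 3 members, outlier spots included, beside 7.37% of 597 probes that did so in all 4 copies. The sample-channel difference ranged over the copies from -0.67 to -0.54 for miR-29a, from -0.87 to -0.55 for miR-29b and from -1.16 to -0.64 for miR-29c. The ratio's difference shrank from the top copy to the bottom copy for every member. For miR-29c it was -0.76, -0.45, -0.40 and -0.16 from top to bottom, with groups that overlapped in the bottom copy. For miR-29a it was -0.45, -0.26, -0.25 and -0.10, and for miR-29b -0.33, -0.27, -0.20 and -0.08. The miR-29a groups overlapped in the lower 2 copies, and the miR-29b groups in every copy but the second. Over all 597 probes, 24.6%, 18.8%, 16.4% and 17.1% had lower ratios on every EAU array in the copies from top to bottom. The reference difference was most negative in the bottom copy for all 3 members, at -0.14, -0.26, -0.17 and -0.35 for miR-29a from top to bottom. It was -0.08, -0.28, -0.21 and -0.35 for miR-29b, and 0.15, -0.24, -0.19 and -0.52 for miR-29c. On the images the reference signal of a member's bottom spot exceeded that of its top spot in 16 of 18 array and member combinations, with a median of 1.69-fold, against 1.13-fold in the sample channel. Over all probes above the blanks the medians were 1.41 and 1.16. The top spot of miR-29c also had a raised local background, up to 164 units in the sample channel and 69 in the reference channel.

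**Figure D4:**
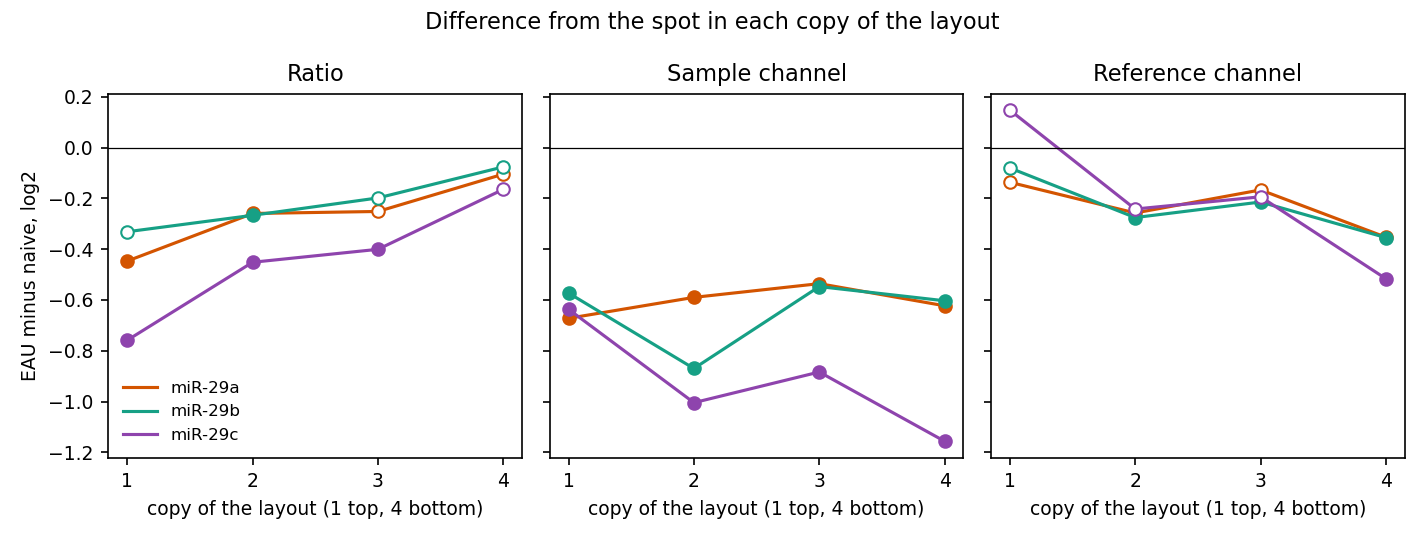
Difference between EAU and naive arrays (EAU minus naive, log2, y axis) from the single spot in each copy of the layout (x axis, 1 at the top and 4 at the bottom) for the 3 members in the ratio, the sample channel and the reference channel. Filled points are copies where all EAU arrays lay below all naive arrays; in the sample channel all 12 points are filled, and in the ratio the differences shrink toward the bottom.

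The members' changes were also set against each other within arrays, over 3 pairs in each quantity. The fall of miR-29c in the sample channel exceeded that of miR-29b by 0.32 on the log2 scale (difference of differences -0.32). The two-sided exact permutation p was 0.1, the smallest that 3 against 3 samples allow, and 0.3 after adjustment over the 3 pairs. miR-29c against miR-29a gave -0.35 (exact permutation p = 0.3, adjusted 0.45), and miR-29a against miR-29b gave 0.03 (exact permutation p = 1). In the ratio all 3 pairs had an adjusted exact permutation p of 0.5. With 3 arrays a group this test cannot reach 0.05, so it leaves unanswered whether the members changed by unequal amounts.

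The opposite arms of the same hairpins, which are usually degraded, gave little signal. miR-29a* and miR-29c* were above the blanks on 0 of 6 arrays, and miR-29b* on 2 EAU arrays (replicates 1 and 2) and 0 naive arrays. Their mean sample signals ran from 50.5 to 109 units, and none passed the test in the ratio. miR-29c* came nearest, with a difference of -0.07 and limma adjusted p = 0.0593, at signals where both groups are below the blank level.

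The probes whose ratio followed the members most closely over the 6 arrays were taken from 189 that were above the blanks in the sample channel on every array. The highest Pearson correlations with the members' mean log2 ratio were 0.976 for miR-715, 0.976 for miR-125b-5p, 0.968 for miR-326, 0.959 for miR-96 and 0.944 for miR-465b-5p. These points share their arrays, reference pool and normalization, and 7 of the 189 had a correlation above 0.9. The members themselves, which are part of that mean, had 0.969 (miR-29a), 0.868 (miR-29b) and 0.953 (miR-29c). miR-715 had a ratio difference of -0.51 (limma adjusted p = 0.152) and miR-125b-5p one of -0.32 (limma adjusted p = 0.144). Their sample-channel differences were -0.12 (limma adjusted p = 0.880) and -0.80 (limma adjusted p = 0.104). miR-96, a photoreceptor microRNA, had a ratio difference of -0.91 (limma adjusted p = 0.0593) and fell by 1.79 in the log2 sample channel (limma adjusted p = 0.00806). miR-326 and miR-465b-5p fell in the ratio by 0.17 each (limma adjusted p = 0.0477 and 0.0365), with sample-channel differences of -0.05 and -0.27 that did not pass.

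Of 17 probes for other microRNAs known for acting on extracellular matrix or fibrosis, 2 rose, 2 fell and 13 did not pass in the ratio, with a median difference of -0.03 against -0.01 over all probes. These 4 calls stand beside the 12.9% called over all probes. miR-21, which promotes fibrosis in mouse heart and lung, rose by 1.16 in the log2 ratio (limma adjusted p = 0.0266) and by 2.70 in the log2 sample channel (limma adjusted p = 0.00949). In that channel it was above the blanks on 3 EAU and 0 naive arrays. miR-214 rose by 0.25 in the ratio (limma adjusted p = 0.0271), with 0.28 in the sample channel (limma adjusted p = 0.525). miR-145, which marks smooth muscle, fell by 0.45 in the ratio (limma adjusted p = 0.00702) and by 0.73 in the sample channel (limma adjusted p = 0.0167). miR-101a fell by 0.13 in the ratio (limma adjusted p = 0.0455), with -0.37 in the sample channel (limma adjusted p = 0.207). Of the same 17, 1 (miR-21) rose, 1 (miR-145) fell and 15 did not pass in the sample channel, beside 9.58% called over all probes.

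Of 16 microRNAs known for acting on T helper cell responses, 0 rose, 3 fell and 13 did not pass in the ratio, with a median difference of -0.04 against -0.01 over all probes, of which 8.74% fell. The sample channel gave 0 that rose, 2 that fell and 14 that did not pass, with a median of -0.23 against -0.01 over all probes, of which 5.88% fell. The 2 are miR-182, a photoreceptor microRNA that fell by 2.11 (limma adjusted p = 0.0134), and miR-181a, named after its value was seen, which fell by 1.28 (limma adjusted p = 0.0075). miR-210, which responds to low oxygen, fell by 0.23 in the ratio (limma adjusted p = 0.0324), with -0.39 in the sample channel (limma adjusted p = 0.0935). miR-31 fell by 0.17 in the ratio (limma adjusted p = 0.0205), but it was above the blanks on 0 EAU and 2 naive arrays. miR-326, which promotes T helper 17 cells in mouse, is the third that fell. miR-146b had 0.18 in the ratio (limma adjusted p = 0.0776).

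Markers of other cell types are given beside the members' values. Their calls stand beside the shares over all 595 tested probes. These were 8.74% lower and 4.2% higher in the ratio, and 5.88% lower and 3.7% higher in the sample channel. Summed net sample signals, unscaled between arrays, were 418 to 1091 units in EAU against 2726 to 3064 in naive for 3 photoreceptor microRNAs, and 6072 to 17473 in EAU against 44130 to 50042 in naive for 5 neuronal microRNAs. The neuronal sum mostly follows miR-124, which was named after its values were seen. Its naive mean in the scaled sample channel was 15.66 on the log2 scale, against 6.89 for miR-138. miR-124 fell by 2.01 in the sample channel (limma adjusted p = 0.00806). But its reference signal was lower by as much (-2.01, limma adjusted p = 0.491) and its ratio groups overlapped (-0.69, limma adjusted p = 0.52). miR-9 fell by 0.66 in the sample channel (limma adjusted p = 0.0342). The other 3 neuronal microRNAs did not pass there, with -0.41 for miR-129-3p, -0.12 for miR-138 and -0.05 for miR-128. In the ratio 3 of the 5 fell: miR-9 (-0.35, limma adjusted p = 0.0211), miR-128 (-0.17, 0.0291) and miR-129-3p (-0.38, 0.0462). miR-128 was above the blanks on only 1 EAU and 1 naive array. For 2 microRNAs of the pigment epithelium the sums were 242 to 1224 in EAU against 1256 to 1604 in naive, and both fell in both quantities. For 5 leukocyte microRNAs the sums were 535 to 1255 in EAU against 308 to 366 in naive. In each quantity 1 of the 5 rose, miR-142-3p in the ratio and miR-142-5p in the sample channel. Both were above the blanks on 3 EAU and 0 naive arrays. A list written for Mueller glia also holds microRNAs of smooth muscle such as miR-145, so it does not stand for that cell type. Its 5 probes summed to 338 to 1287 in EAU against 587 to 718 in naive, and 1 rose and 2 fell in the ratio. Of 2 endothelial microRNAs, summing to 103 to 298 in EAU against 112 to 198 in naive, 0 passed in the ratio or the sample channel. miR-126-5p was above the blanks on 0 EAU and 0 naive arrays, so this result rests on miR-126-3p. All 3 photoreceptor microRNAs (miR-183, miR-96 and miR-182) fell in the sample channel, and they were above the blanks on all 6 arrays, as the retinal label asks. In the ratio 1 of the 3 passed, miR-183 with -1.38 (limma adjusted p = 0.0483). There miR-96 had -0.91 (limma adjusted p = 0.0593) and miR-182 had -1.28 (limma adjusted p = 0.104). Fewer cells of a type and less RNA per cell cannot be told apart in these bulk samples, and the part of these cell types in the fall of miR-29 was not tested. Mouse probes above the blanks in the sample channel numbered 249 to 315 on EAU arrays and 252 to 292 on naive arrays. In the reference channel they numbered 149 to 293 on EAU arrays, lowest on EAU replicate 3, and 239 to 314 on naive arrays.

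The authors' deposited table of ratios gave the same order of differences as the ratio above. Its direction was read from the data: over 196 probes above the blanks, its log2 values correlated with the scanned log2 ratio at 0.568 to 0.776 on the 6 arrays. Its normalization stays unknown, and its median over mouse probes was 0.86, 0.91 and 0.85 in EAU replicates 1 to 3, against 0.90, 0.87 and 0.83 in naive replicates. For miR-29c the authors' deposited table lists ratios of 0.610, 0.582 and 0.666 in EAU replicates 1 to 3, against 1.12, 0.956 and 0.865 in naive replicates. Every EAU ratio was below every naive ratio, and limma on log2 of these values gave -0.66 with adjusted p = 0.0263. In the authors' deposited table miR-29a had a log2 difference of -0.39 and miR-29b of -0.25, and neither passed. The fall of miR-29c therefore passed the test in the sample channel and in the authors' deposited table. With the main settings it missed the threshold in the ratio computed from the scanned signals (limma adjusted p = 0.0698). That ratio result depended on the processing: 5 of 19 alternatives passed, the deposited table among them.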

How the data were processed

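Signals were read from 6 arrays (3 EAU, 3 naive), whose deposited scanner files hold the intensity of each spot in both channels. Per the file headers, Agilent Feature Extraction 9.1.3.1 made them. A further deposited table holds ratios, whose direction (Hy3 over Hy5) was read from the data. How the authors normalized them is not given in the sources used here. Groups follow the sample titles. Mean signals and median local backgrounds were corrected with normexp (offset 50) in limma 3.58.1 under R 4.3.3. Ratios were normalized by loess (span 0.3, control spots at weight 0). Each channel was also quantile-normalized between arrays. Outlier spots were dropped and the remaining spots of each probe averaged on the log2 scale. Differences are EAU minus naive, tested two-sided with lmFit and eBayes where both groups had at least 2 values. Benjamini-Hochberg adjustment ran over all tested mouse probes, with 0.05 as threshold. The script was tested on simulated data. Precision is limited by the number of arrays.

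The named probes are the members, their opposite arms, up to 4 probes per list with the smallest p in the ratio, and the 5 most alike in ratio. The members and lists were chosen with earlier results of these data known. In the deposited ratio table, 36 of 1972 rows with values over 32 on all arrays were left out, and it names 588 mouse probes. Replicate numbers were not taken to pair the samples, since same-numbered deviations did not all correlate above 0.1: they correlated at 0.19, -0.15 and 0.29 in the ratio, 0.12, -0.27 and 0.06 in the sample channel, and 0.42, 0.13 and 0.52 in the reference channel, where the shared pool was measured. Alternatives changed the background correction, outlier and spot handling, filter, normalization, replicate block and array set.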

Additional observations from a re-analysis of the deposited data

How the results depend on the processing

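In the sample channel each member stayed lower in EAU under all 17 alternatives run, and miR-29a, miR-29b and miR-29c passed the threshold in 7, 14 and 15 of them. In the ratio they passed in 0, 0 and 5 of 19. The cause of the changes that follow was not tested. Without background correction the sample channel gave 25 calls and miR-29a -0.67 (limma adjusted p = 0.0552). With the scanner software's processed signals it gave 27 calls, miR-29a -0.69 (0.0825) and miR-29b -0.79 (0.0536). Scaling to the 75th percentile gave 27 calls, miR-29a -0.52 (0.436) and miR-29b -0.57 (0.234), with the median of all probes at -0.15, and 1 call in the reference channel. Without scaling between arrays there were 0 sample-channel calls (30 at an unadjusted p under 0.05), and miR-29a, miR-29b and miR-29c had -0.37, -0.42 and -0.72. Without the top copy of the layout, an alternative chosen after seeing the data, miR-29a had -0.53 (0.0649). The ratio of miR-29c passed with an offset of 10 (-0.68, adjusted p = 0.0443), without background correction (-0.57, 0.0273), among probes above the blanks on at least 3 arrays (-0.47, 0.0441), with processed signals (-0.77, 0.0249) and in the deposited table (-0.66, 0.0263). Without normalization the ratio of miR-29a turned to 0.00995 (adjusted p = 0.995). Beside 77 ratio calls (25 higher, 52 lower), there were 47 with the median of the spots (21 higher, 26 lower), 2 with median centring (1 each way), 25 without normalization (21 higher, 4 lower), 33 with loess on bright spots (18 higher, 15 lower) and 32 with loess within each copy of the layout (18 higher, 14 lower), the last chosen after seeing the data. Processed signals gave 42 higher and 30 lower, and the deposited ratios gave 42 higher and 40 lower. Leaving out 1 array at a time gave 7 to 77 ratio calls, fewest without EAU replicate 3, and 15 to 52 sample-channel calls (57 with all arrays), fewest without naive replicate 3. The sample-channel differences then ran from -0.72 to -0.51 for miR-29a, -0.71 to -0.61 for miR-29b and -1.08 to -0.87 for miR-29c, and the ratio differences from -0.50 to -0.18, -0.23 to -0.11 and -0.55 to -0.34. With median centring the ratio differences were -0.06, -0.08 and -0.40. With the replicate block there were 2 ratio, 33 sample-channel and 0 reference-channel calls (50 at an unadjusted p under 0.05), and the members' sample-channel adjusted p was 0.0436, 0.0461 and 0.0370 for miR-29a, miR-29b and miR-29c. Both groups hold 3 arrays, the reference signals lie near the blanks, and scan day goes with group.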
